A study of Mus musculus with 3 samples.

Results

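Rn7sk, Rny1 and Rny3 encode short noncoding RNAs made by RNA polymerase III. Reads assigned to these loci were the deposited mm9 reads lying wholly in chr9:78023050-78023500 on the minus strand, for Rn7sk, or wholly in chr6:47730000-47735000 on either strand, for the Y RNA genes. The first interval held 162 reads and the second 120, so that 282 of the 1727697 reads were members, or 0.0163% (95% Wilson interval 0.0145 to 0.0183). The loci were chosen by the height of their read stacks in these same data, so the number of reads, their height and their rank are given as a description without a test. The gene names were checked against the reads and a gene table, and they did not hold in full: the chromosome 6 interval held a single tall stack, not 2.

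The reads came from HITS-CLIP of Ptbp2, an RNA-binding protein of the polypyrimidine tract-binding family that regulates splicing. In this assay RNA is crosslinked to protein, trimmed with RNase and recovered with the protein by an antibody, linkers are joined to both ends of the fragments, and these are sequenced. The only group was made of testes from CD1 males 8 weeks of age, with 1 library from each of 3 animals, no treatment and no input or control library. Reads carry 1 of 3 display colours, here called the red, green and blue classes with 493620, 952096 and 281981 reads, and which animal each colour stands for is not labelled. For that reason values are given for each class singly, without an SD or a p-value between animals.

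The 7SK RNA is the scaffold of a nuclear particle with the proteins Larp7, Mepce and Hexim1, which holds the elongation kinase P-TEFb inactive and so limits the release of paused RNA polymerase II. Y RNAs are bound by the Ro60 protein and, at their 3′ end, by the La protein (Ssb). The ends of a Y RNA pair with each other in a stem, and the middle forms a loop that is rich in pyrimidines in several Y RNAs. The related protein Ptbp1 has been described in particles with human Y1 and Y3 RNA. Reads of the genes for these partner proteins were not analysed here, because no gene positions in mm9 were used. All 3 genes have copies in rodent genomes, and how reads with several equally good positions were handled is not given in the sources used here, so the assignment of a read to these loci rather than to a copy is uncertain.

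On chromosome 9 all 162 reads formed 1 continuous stretch at chr9:78023101-78023251 on the minus strand, 151 nt long, and the plus strand of the interval held 0 reads. Nearest to the interval on the minus strand, the next reads were 19330 nt away on one side and 163883 nt on the other, so its edges decided the membership of no read. The RefSeq table for GRCm38 lists Rn7sk with a length of 332 nt. The reads thus covered at most 151 nt of an RNA of that length, and at least 181 nt of it carried no read. If the whole RNA lies within the 451 nt interval, at least its first 130 nt were without a read, because the interval leaves 249 nt upstream of the first covered base and 51 nt downstream of the last. Under that condition the reads lay away from the 5′ end of 7SK, in its middle or 3′ part. The exact base of the RNA could not be given, since positions were not converted between builds.

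Positions on each stretch are counted from 1 at its 5′ edge, the outermost base covered by a read. Along the Rn7sk stretch the depth rose from 13 reads at position 10 to 30 at position 30, 66 at position 40 and 115 at position 60. It peaked at 124 reads over positions 63 to 67, then fell to 63 at position 100, 33 at position 117 and 8 at position 130. The summit was rounded, and 76.5% of the reads overlapped it (95% Wilson interval 69.5 to 82.4). The part with at least 50% of the summit depth ran from position 39 to 100, which is 62 nt. The tallest base lay at position 55 in the red class, with 33 reads, at positions 63 to 67 in the green class, with 79, and at 63 to 71 in the blue class, with 17. The part at 50% of the class summit was 58 nt wide in red, 58 nt in green and 64 nt in blue, so all 3 classes had the same broad form.

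**Figure D1:**
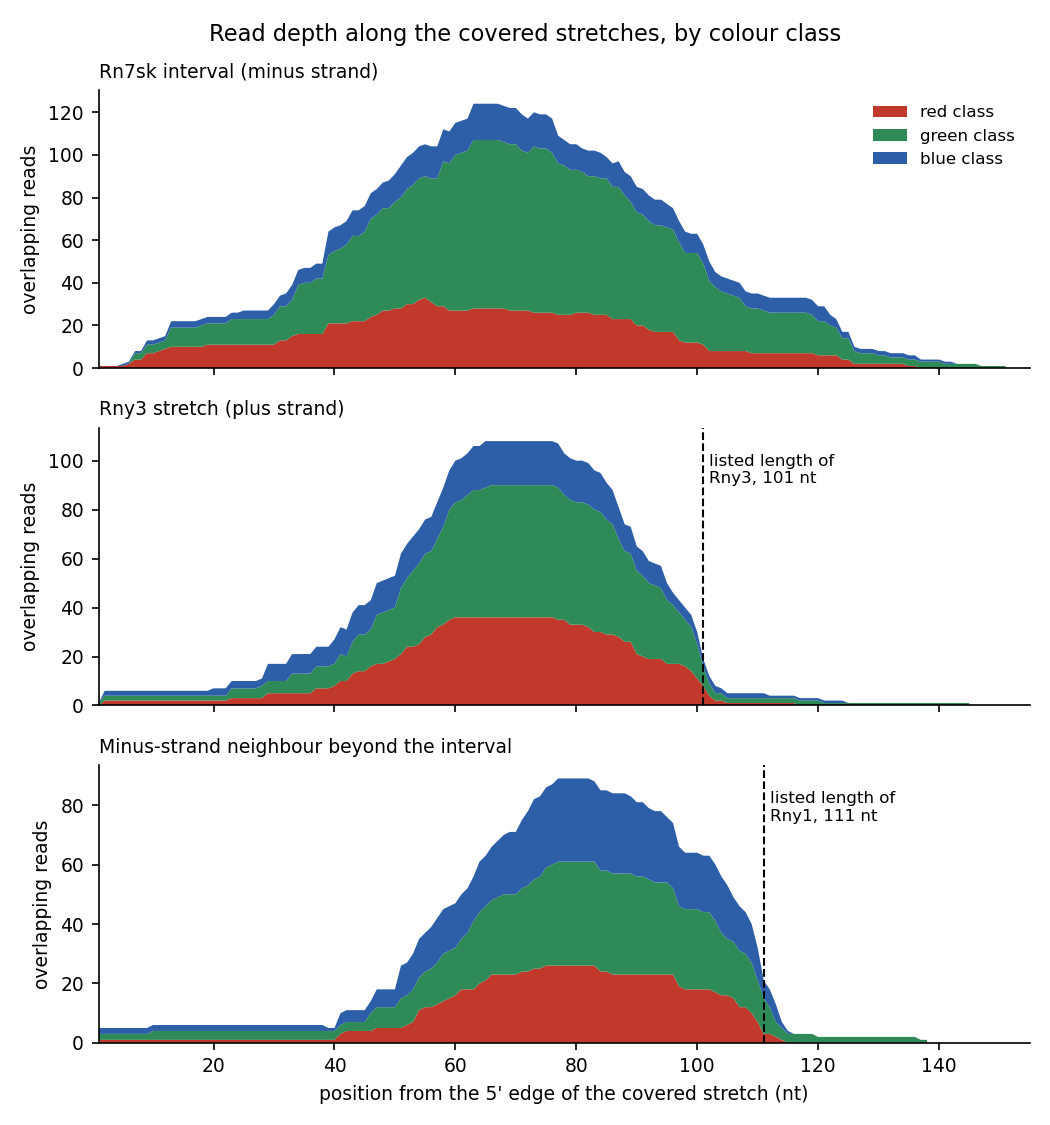
Number of overlapping reads (vertical axis, red, green and blue classes stacked) at each position from the 5′ edge (horizontal axis, nt) of the Rn7sk stretch, the Rny3 stretch and the minus-strand neighbour of Rny3. The dashed lines mark the RefSeq lengths of Rny3 and Rny1, 101 and 111 nt, counted from the 5′ edge of the reads, which need not be the first base of the RNA. The stacks peak at 124, 108 and 89 reads, and both lower panels have a low plateau of 5 to 7 reads on the 5′ side.

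The 5′ ends of the Rn7sk reads were spread over 58 positions between 1 and 95, with a median of 46 and quartiles of 34 and 60. The commonest was position 39, where 15 reads began (9.26%, 95% Wilson interval 5.69 to 14.7). Of these, 5 were red, 6 green and 4 blue, so the position was used in every class, and their 3′ ends ran from position 70 to 107. Position 58 followed with 10 reads, 8 of them green, 2 red and none blue. Positions 13, 34 and 63 had 7 each, of which green made 5, 6 and 4. Within 2 nt of position 39 lay 12.3% of the 5′ ends, and 65.4% fell between positions 30 and 63.

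The 3′ ends of the same reads took 61 positions from 55 to 151, with a median of 92. No position stood out: positions 76 and 101 had 8 reads each, and positions 89 and 125 had 7 each. Between positions 70 and 111 lay 116 reads (71.6%), between 118 and 126 another 24 (14.8%, 95% Wilson interval 10.2 to 21.1), and at positions 112 to 117 none. A further 9 reads (5.56%) ended at positions 127 to 151. Of the 24 reads, 3 were 74 nt long, as were 4 of the 9. The 24 were 5 red, 14 green and 5 blue, or 12.2%, 14.3% and 21.7% of the class. An early group of 13 reads ended at positions 55 to 69, and 9 of these were red. They made 22.0% of the red reads against 3.06% of the green and 4.35% of the blue, and they go with the earlier red summit. These position spans were set after the reads had been seen.

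Reads of 74 nt were sequenced to the last base, so their 3′ end can be where sequencing stopped rather than an end of the fragment. There were 9 such reads on Rn7sk (5.56%, against 4.18% of all reads in the file). Among the shorter reads the farthest 3′ end was at position 142, and 2 reads of 74 nt went past it, to positions 146 and 151. Without reads of 74 nt the covered length was 142 nt.

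On chromosome 6 all 120 reads were on the plus strand, and 116 of them (96.7%, 95% Wilson interval 91.7 to 98.7) formed 1 stretch at chr6:47731621-47731765, 145 nt long. The other 4 reads lay about 2 kb farther on, 1 at chr6:47733754-47733812, 2 at chr6:47733818-47733877 and 1 at chr6:47734049-47734112. The RefSeq table for GRCm38 lists Rny3 (101 nt) before Rny1 (111 nt) on this chromosome, with a ribosomal protein pseudogene, Rpl31-ps7, between them. It places their starts farther apart than the interval is long, so the interval can hold only one of these genes if the spacing is like that in mm9. By this order and spacing alone the stretch is called Rny3 here. Tall stacks were not looked for before the start of the interval, where the nearest read lay 1750 nt away. The name was thus not checked against the case that the stretch is Rny1, with Rny3 before the interval. Its covered length of 145 nt exceeds both listed lengths. Bases with at least 5% of the summit depth spanned 103 nt, nearer to the listed length of Rny3 than of Rny1. The name was not taken from this length, which depends on the depth required. Positions 105 to 111 had a depth of 5 reads. Counted down to that depth, the span would be nearer to the listed length of Rny1.

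The next stack of at least 10 reads lay outside the interval, 3041 nt past its end and on the other strand, at chr6:47738041-47738178. It was 138 nt long with 94 reads, all on the minus strand, and there were 0 reads between the interval and its first base. Its 5′ edge was 6557 nt from that of the Rny3 stretch. If the stretch in the interval is Rny3, this stack takes the place of Rny1 in the gene order. The assignment was made from order and spacing only, since no mm9 annotation was used. Bases with at least 5% of its summit depth spanned 114 nt, beside the 111 nt listed for Rny1. The stack was looked for after the interval had been found to hold a single stack, and only past the interval's end. It is called the minus-strand neighbour below and is set beside Rny3 as the closest comparison.

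The Rny3 reads had an abrupt 5′ edge. At position 1 began 1 read and at position 2 another 5, and the next 5′ end was at position 20. These 6 reads were 2 red, 2 green and 2 blue, and they ended at positions 32, 40, 41, 45, 50 and 52. The minus-strand neighbour had the same kind of edge, with 5 reads starting at position 1 (1 red, 2 green and 2 blue) and the next 5′ ends at positions 10 and 37. Its edge reads ended at positions 36, 38, 40, 52 and 74. All 3 classes thus had reads from the first bases of both stretches, and these were 5.17% of the Rny3 reads (95% Wilson interval 2.39 to 10.8) and 5.32% of the neighbour's (2.29 to 11.9).

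Few reads on either stretch covered the first bases. On Rny3 the depth was 6 reads at position 10, 17 at position 30 and 53 at position 50, and it reached 108 reads over positions 65 to 76. It was still 65 at position 90 and 30 at position 100, and 5 at position 110. The neighbour had 6 reads at position 30, 18 at position 50 and 47 at position 60, with a summit of 89 reads over positions 77 to 82. The summit was overlapped by 93.1% of the Rny3 reads (95% Wilson interval 87.0 to 96.5) and 94.7% of the neighbour's (88.1 to 97.7). Both stretches thus had a thin plateau at the 5′ edge ahead of a single summit.

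The class profiles of Rny3 were alike in place. The summit covered positions 60 to 76 in the red class (36 reads), 66 to 77 in the green class (54 reads) and position 65 in the blue class (19 reads). The blue reads began earlier, with a median 5′ end at position 41 against 48 in red and 51 in green, and 38.1% of them began at positions 20 to 40 against 18.4% and 12.3%. That is 8 blue, 7 red and 7 green reads, so the difference rests on few reads. In the neighbour the class summits began at positions 75, 77 and 77 in red, green and blue and ended at 83, 83 and 82, closer together than on Rny3 and Rn7sk.

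**Figure D2:**
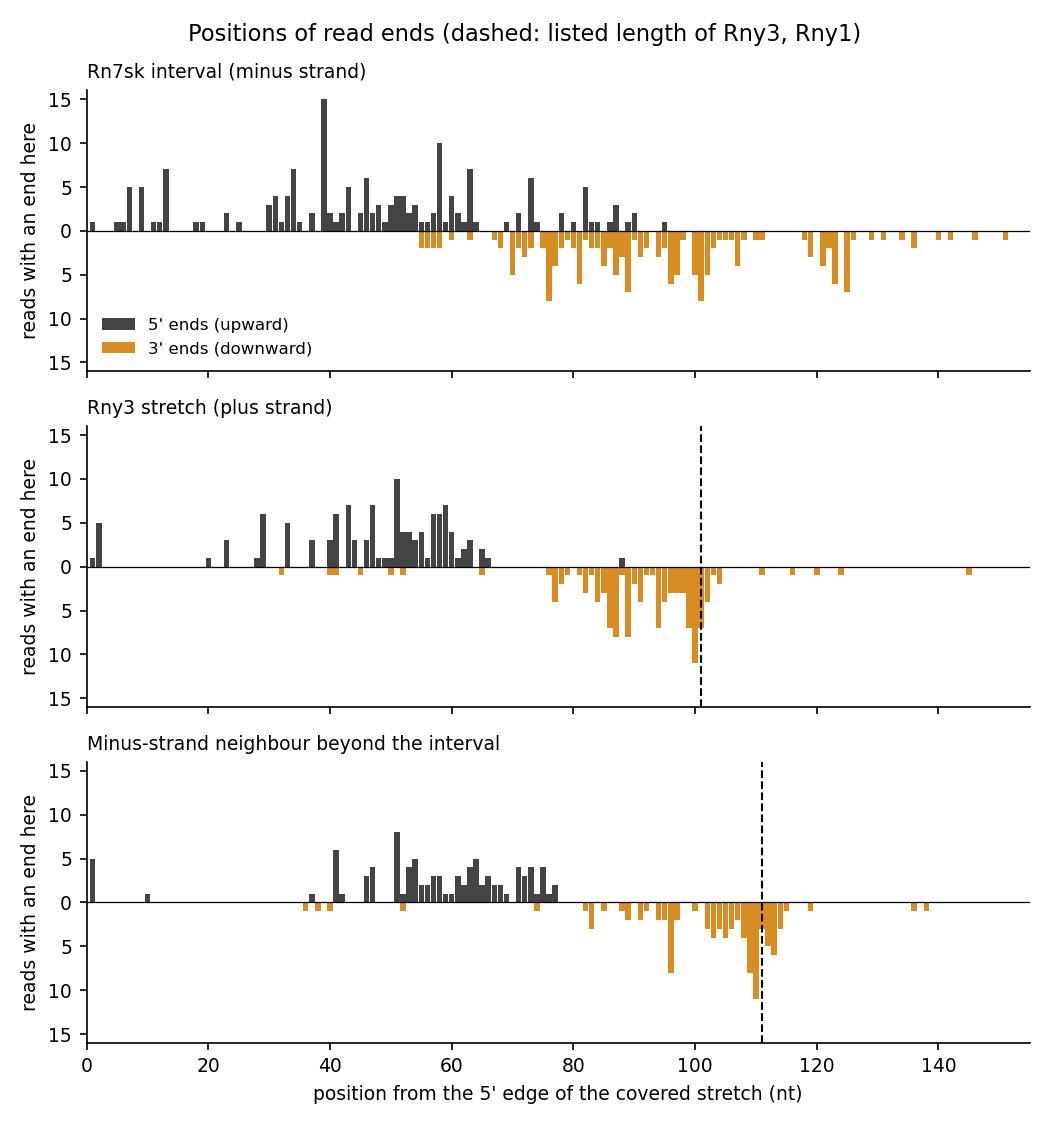
Number of reads with a 5′ end (upward bars) or a 3′ end (downward bars) at each position from the 5′ edge (horizontal axis, nt) on the same 3 stretches, all classes together, with dashed lines at the RefSeq lengths of Rny3 and Rny1. On Rny3 and the neighbour the commonest 3′ ends are positions 100 and 110, with 11 reads each, while on Rn7sk the commonest 5′ end, at position 39 with 15 reads, exceeds any 3′ end.

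On Rny3 the 5′ ends took 33 positions, and 87 of 116 reads (75%, 95% Wilson interval 66.4 to 82.0) began between positions 41 and 66. Of the 26 positions in that span 23 were used. The commonest was position 51 with 10 reads (2 red, 6 green and 2 blue), followed by 43, 47 and 59 with 7 each. Position 51 led in the green class only: in red no position had more than 3 reads, and in blue the commonest was position 29, with 4. A single read began beyond position 66, at position 88. In the neighbour 87 of 94 reads (92.6%, 85.4 to 96.3) began between positions 41 and 77 and 0 beyond, and the commonest 5′ end was again position 51, with 8 reads (0 red, 3 green and 5 blue). The 5′ ends within these spans were spread and had no single dominant cut.

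The 3′ ends can be set beside the listed lengths only if the 5′ edge of each stretch is taken as the first base of the RNA, which was not tested. Within 4 nt of the listed length counted in this way lay less than 50% of the 3′ ends on either stretch. On Rny3 the commonest 3′ end was position 100, with 11 reads (3 red, 6 green and 2 blue). It led in the green class only: in red the commonest was position 89, with 5 reads, and in blue no position had more than 2. The reads that shared it began anywhere from position 37 to 65. Within 2 nt of position 100 lay 27.6% of the 3′ ends (95% Wilson interval 20.3 to 36.3), and within 4 nt of position 101 lay 38 reads (32.8%). The latter were 42.1% of the red, 33.3% of the green and 14.3% of the blue reads, the last being 3 reads. In the neighbour the commonest 3′ end was position 110, with 11 reads (4 red, 2 green and 5 blue). It led in blue and tied in red with position 96, while in green the commonest was position 112, with 4 reads. Within 4 nt of position 111 lay 43 reads (45.7%, 36.0 to 55.8), at 44.4% of the red, 43.2% of the green and 50% of the blue reads. Within 5 nt of position 110 lay 53.2% of the neighbour's 3′ ends (43.2 to 63.0), so whether the share passes 50% depends on the window. More of the Rny3 ends were earlier, with 65 reads (56.0%) between positions 77 and 96 and a group of ends at positions 86, 87 and 89 with 7, 8 and 8 reads. The neighbour had 42 reads (44.7%) ending between positions 83 and 106, of which 8 ended at position 96.

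Counted in the same way, 12 of the 116 Rny3 reads (10.3%, 95% Wilson interval 6.02 to 17.2) ended past position 101, and 18 of the 94 reads of the neighbour (19.1%, 12.5 to 28.3) ended past position 111. On Rny3 5 reads ended more than 4 nt beyond position 101, and 3 of these were reads of 74 nt, ending at positions 116, 120 and 124. The others were a 61 nt read ending at position 111 and a 58 nt read from position 88 to 145, which alone set the 3′ edge of the stretch. In the neighbour 3 reads ended more than 4 nt beyond position 111, at positions 119, 136 and 138, and all 3 were reads of 74 nt. With reads of 74 nt left out, the farthest 3′ end in the neighbour was position 115. Since the RNA cannot be told from other sequence without the mm9 genome, the source of the last bases of these reads was not tested.

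The median read length was 48 nt on Rn7sk (quartiles 40 and 57), 44 nt on Rny3 (37 and 52) and 46 nt on the neighbour (39 and 51.8), against 46 nt over all reads. By class the median was 50, 46 and 45 nt on Rn7sk in red, green and blue, and 44, 41 and 50 nt on Rny3, against 48, 45 and 47 nt in the file. Green reads were thus the shortest on Rny3 and blue the longest, by medians. A read of 74 nt cannot span a Y RNA of 101 nt, so, if the 5′ edge is the first base of the RNA, full-length Y RNA would appear only as reads cut off at 74 nt from that edge. On Rny3 0 of the 6 edge reads had that length, and in the neighbour 1 of 5 did, a red read.

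Scaled to the depth of each class, Rn7sk had 83.1 reads per 1000000 reads in red (95% Wilson interval 61.2 to 112.7), 102.9 in green (84.5 to 125.4) and 81.6 in blue (54.4 to 122.4). Rny3 had 77.0 in red (56.1 to 105.7), 59.9 in green (46.2 to 77.6) and 74.5 in blue (48.7 to 113.9). For both the intervals of the 3 classes overlapped. The neighbour had 54.7 in red (37.6 to 79.6), 38.9 in green (28.2 to 53.6) and 106.4 in blue (74.5 to 151.9), and here the green and blue intervals were apart. Green made 39.4% of the neighbour's reads (30.1 to 49.5) and blue 31.9% (23.4 to 41.9), against 55.1% and 16.3% of the file. Intervals cover counting error only and hold no spread between animals, and copies of 1 molecule, if any remain, are not independent. No 2 lines of the file share both ends and strand, so reads with the same ends and strand are listed under 1 colour only. What part this has in the class counts at tall stacks was not tested.

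**Figure D3:**
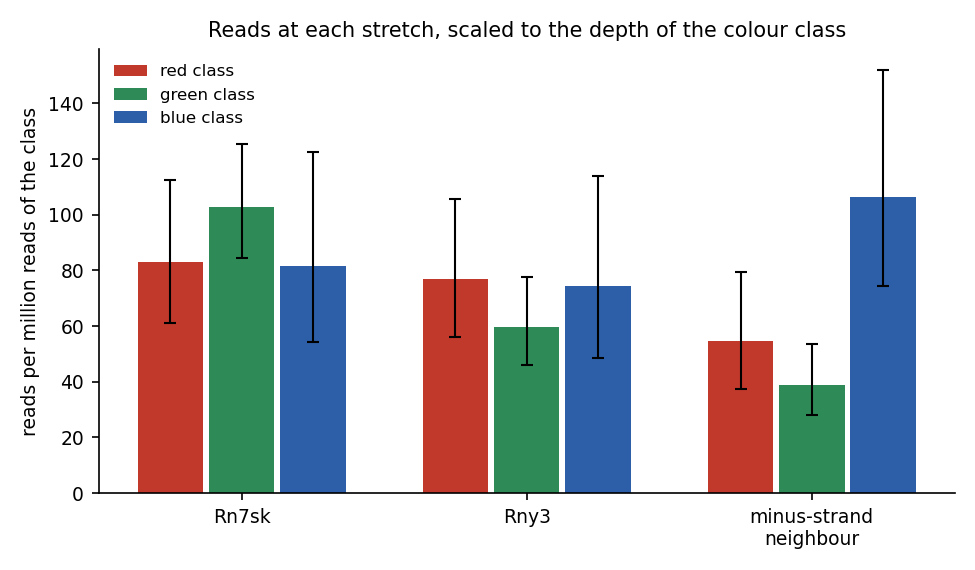
Number of reads per 1000000 reads of the class (vertical axis) at Rn7sk, Rny3 and the minus-strand neighbour, one bar for each colour class with its 95% Wilson interval. Blue is highest at the neighbour, at 106.4, where green is lowest, at 38.9, while the intervals of the 3 classes overlap at Rn7sk and at Rny3.

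As no lines of the file share both ends and strand, a stack on a short RNA can grow only by reads that differ in an end. The 116 Rny3 reads used 33 positions for the 5′ end and 40 for the 3′ end, and the 94 reads of the neighbour 33 and 34, while the 162 Rn7sk reads used 58 and 61. If repeated reads were removed, which the sources used here do not state, the read numbers are lower bounds on what was sequenced. This would hold the more where both ends are confined to few positions. When only 1 read was kept for each 5′ end in a class, 88 reads were left on Rn7sk, 63 on Rny3 and 62 on the neighbour, with summits of 62, 58 and 59 reads. The order by number of reads was the same as with all reads, with smaller gaps, and the summits of the 3 were close. The summits were then at positions 64 to 70, 66 to 76 and 77 to 83, overlapping those of all reads.

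The stretches were set beside the other clusters of the file, where a cluster is a same-strand run of overlapping nuclear-genome reads that reaches a depth of 10 and includes every class. Among 6509 clusters, Rn7sk ranked 6 by summit, Rny3 10 and the neighbour 16. Rny3 ranked 18 without the red class, 4 without green and 11 without blue, and the neighbour 30, 5 and 33, so both ranks depended on which classes were counted, whereas Rn7sk stayed between 6 and 8. Of the 111 clusters with at least 80 reads, a number chosen after seeing the data, the neighbour, Rny3 and Rn7sk were among the narrowest, at 4, 5 and 6 from the low end, with a median covered length of 443 nt over the 111. The share of reads over the summit ranked 4 for the neighbour, 6 for Rny3 and 11 for Rn7sk, against a median of 37.0%. Over all 6509 clusters, in the same order, the covered lengths ranked 4025, 4254 and 4445 from the low end. The shares over the summit there ranked 2423, 2594 and 4366 from the high end, so neither trait stood out outside the 111. The number of distinct 5′ ends per read, 0.284 on Rny3, was the third lowest of the 111, where the median was 0.537. The median read length of Rny3, 44 nt, was near the low end, with 1 cluster lower. Clusters are not replicates, and the members were chosen for their height, so these ranks are a description.

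**Figure D4:**
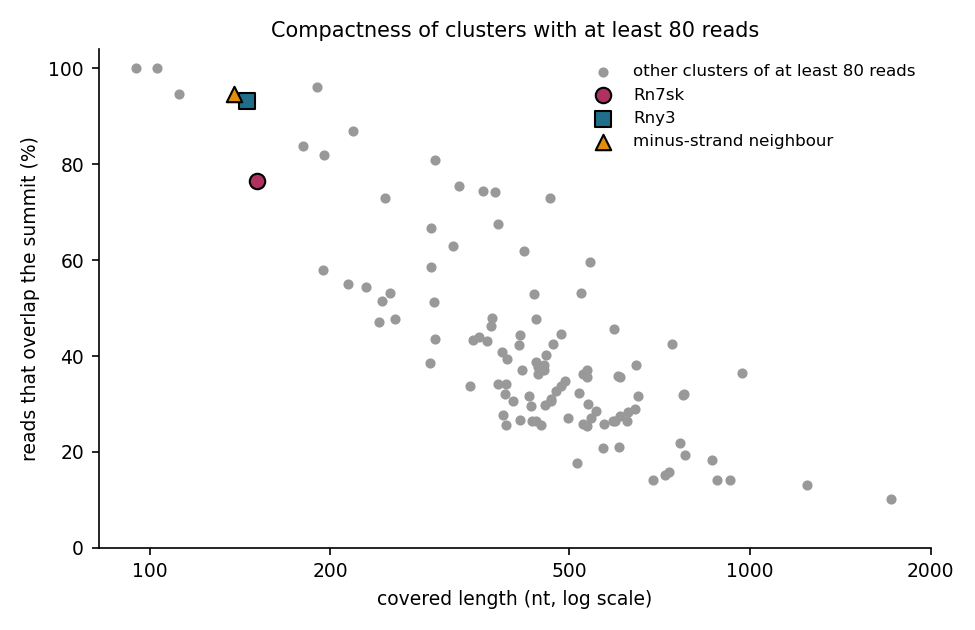
Covered length (horizontal axis, nt, log scale) and percent of reads that overlap the summit (vertical axis) for the 111 clusters with at least 80 reads, each point a cluster. The minus-strand neighbour (138 nt, 94.7%), Rny3 (145 nt, 93.1%) and Rn7sk (151 nt, 76.5%) lie at the upper left, among the shortest clusters.

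Among the 10 highest summits, the other 8 clusters were 112 to 1242 nt long, and the share of reads at the commonest 5′ end was 1.76% to 5.88% in them, below the 9.26% of Rn7sk and the 8.62% of Rny3. Among the 111 clusters with at least 80 reads, however, where the median of this share was 6.10%, Rn7sk ranked 11 and Rny3 19, so the share was not particular to them. Their commonest 3′ end held 1.41% to 14.0% of the reads, a range that includes the 4.94% of Rn7sk and the 9.48% of Rny3. Green made 52.7% to 90.7% of their reads, so that Rny3, with 49.1% green (95% Wilson interval 40.2 to 58.1), had the smallest green share of the 10. Its interval includes the 55.1% of the whole file.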

How the data were processed

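Ptbp2 HITS-CLIP was done on testes of 3 CD1 mice, and the reads of the 3 libraries were deposited in 1 file. Per the labels' protocols, reads open with bases of the 5′ linker, and per the submitters' processing notes Bowtie and mm9 were used. Sources used here do not give the version, the settings, the removal of 3′ linkers or the treatment of repeated reads. The deposited lines give both ends, strand, a score and a colour, with read lengths of 20 to 74 nt. The deposited score was 0 on every line and was not used.

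Reads were selected by position and merged into runs of overlapping reads per strand. Depth and ends were counted per position from the 5′ edge, with 95% Wilson intervals. Where positions tied as the commonest end, the one with most ends within 5 nt was taken. Python 3.11.15, numpy 2.4.6, pandas 2.3.3 and scipy 1.17.1 were used. The cluster calling was tested on simulated data, where it found 200 of 200 planted stretches and 0 before planting.

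The members and comparisons were chosen with earlier results of these data known. The items named are the 3 members, every run in the Y RNA interval that reached a depth of 10, and the other clusters among the 10 highest. The minus-strand neighbour was added after seeing the data. Gene names, order, spacing and lengths came from RefSeq for GRCm38, where all 3 members were listed. Positions of that build served for order and spacing only and were not converted to mm9. The sequence tables at hand held 0 entries for the 3 members, so no sequences are shown.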

Additional observations from a re-analysis of the deposited data

How the results depend on the processing

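Of 96 values recomputed for Rn7sk and Rny3 under an alternative, 76 stayed within their interval or spread, or within 1.5 times for counts, and 20 moved. The 76 include the strand shares, which were fixed by how the reads were selected and could not move. The median read length and the rank of Rn7sk by summit were not among those that moved. Nor was the covered length by these limits. At bases with at least 5% of the summit, however, it fell from 151 to 128 nt on Rn7sk and from 145 to 103 nt on Rny3. Keeping 1 read per 5′ end and class left 88 reads on Rn7sk and 63 on Rny3, and took the green share of Rn7sk from 60.5% to 50%. Keeping 1 per 3′ end left 92 and 65. Leaving out a class gave 64 to 139 reads on Rn7sk and 59 to 95 on Rny3, lowest without green, and summit middles of 55 to 65 and of 65 to 71 nt. The Rny3 summit was at 75.5 nt by read midpoints in bins of 10 nt. The share of 5′ ends near the commonest position, 12.3% on Rn7sk and 17.2% on Rny3 within 2 nt, was 21.6% and 33.6% within 5 nt and, on Rny3, 8.62% at the exact position. Leaving out a class gave 11.5% to 14.1% on Rn7sk and 10.2% (without green) to 17.9% on Rny3. The 10.2% belongs to another site, position 29, where 2 red and 4 blue reads began. At position 51, the commonest with all classes, 2 red and 2 blue reads began. For 3′ ends, 12.3% and 27.6% became 4.94% and 9.48% at the exact position and 21.6% and 38.8% within 5 nt. The rank of Rny3 by summit, 10, was 4 without green and 18 without red, a comparison added after seeing the data. The shares within 0, 2 and 5 nt and the lower read numbers differ by construction; the cause of the other changes was not tested. No paired analysis was possible because there is only 1 group of samples. With 21 blue reads on Rny3 and 23 on Rn7sk, depth limits the positions by class.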
